A study of Drosophila melanogaster with 8 samples.

Results

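The genes described here are 37 genes of the DNA replication machinery of Drosophila melanogaster. They were taken by symbol from a list of origin recognition, helicase, polymerase, clamp, nucleotide supply and chromatin assembly genes, and all 37 were found among the 17321 genes of each deposited table. RNA was sequenced from whole embryos of stages 8 to 16, with 2 libraries in each of 4 groups. In Quad embryos, the ubiquitous driver da-Gal4 switched on UAS transgenes for the neural transcription factors ase, Kr, wor and SoxN. The control of that experiment, Ctrl, carried da-Gal4 over OregonR and no UAS transgene. In QuadD embryos, the same driver was combined with ase-Vp16, wor-EnR, SoxN-EnR and an unaltered Kr, where Vp16 is an activation domain and EnR the repressor domain of Engrailed. Ctrl-D, the control of the second experiment, had the same genotype as Ctrl. All 8 libraries therefore carried da-Gal4, and only the controls carried OregonR chromosomes, so strain background and transgenes cannot be told apart. Each experiment was sequenced on its own lane, so lane and experiment cannot be told apart either. The labels call the replicates biological without saying whether they came from separate crosses, and the p-values measure the spread between these libraries.

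A eukaryotic cell copies its genome once per cycle. The origin recognition complex marks start sites, Cdt1 (dup in the fly) loads the MCM2-7 helicase there, and geminin blocks a second loading. CDC45 and the GINS complex turn the loaded helicase on, polymerases alpha, delta and epsilon copy the strands with the sliding clamp PCNA, and chromatin assembly factors wrap the new DNA in nucleosomes. In fly embryos of these stages, cycling cells such as neuroblasts, the neural stem cells, express these genes, while most epidermal cells stop dividing. In whole embryos, more cells that express a gene and more RNA per cell cannot be told apart.

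Levels are deposited RPKM, read counts divided by transcript length and library size, so genes can be compared per length. Log2 fold changes were taken of log2(RPKM + 1), so those of weakly expressed genes are understated, and are given ± SE. A gene is said to have risen where limma's moderated test gave an adjusted p below 0.05 over all genes tested. Deposited read counts per library, which leave out reads of many genes, summed to between 2765722 and 6740835. As a check of the labels, ase and wor rose in both experiments (log2 fold changes between 1.60 and 2.08). Kr rose by 1.33 ± 0.15 in Quad, but in the libraries labelled QuadD its log2 fold change over Ctrl-D was 0.066 ± 0.11 (adjusted p = 0.637). SoxN missed the threshold in Quad (0.35 ± 0.12, adjusted p = 0.0536) and passed in QuadD (0.41 ± 0.10, adjusted p = 0.0162).

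Replication genes were about 2-fold higher in Quad embryos than in Ctrl embryos. Of the 37 genes, 36 rose and 0 fell, against 24.9% of all 10436 genes tested that rose. The median log2 fold change was 1.09 for the 37 genes, a 2.14-fold difference, and 0.053 for all genes tested. The Quad libraries did not overlap the Ctrl libraries and were higher for 36 genes, as they were for 41.5% of all genes tested. A log2 fold change of at least 1 was found for 24 of the 37 genes, 64.9%, and for 6.41% of all genes tested. The one gene that did not rise was CTPsyn. In relative terms, the 37 genes together took 0.509% and 0.604% of the summed RPKM in the Quad libraries, against 0.262% and 0.246% in the Ctrl libraries. Without any filter on low values, when all 17321 genes entered the test, 21 of the 37 passed with the same fold changes. Among them were the 6 MCM2-7 genes and Ts but not PCNA (adjusted p = 0.0599). Over all 17321 genes, 1287 rose in that setting.

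QuadD embryos also had higher levels of these genes than Ctrl-D embryos. Here 34 of the 37 genes rose and 0 fell, against 27.4% of all 10207 genes tested that rose. The median was 0.81, a 1.76-fold difference, with 0.034 for all genes tested. Both QuadD libraries lay above both Ctrl-D libraries for 36 genes, and for 42.2% of all genes tested. At least 1 on the log2 scale was reached by 9 of the 37 genes, 24.3%, and by 5.38% of all genes tested. Mcm10, RfC38 and CTPsyn did not pass. The 37 genes took 0.606% and 0.653% of the summed RPKM in QuadD, against 0.38% and 0.287% in Ctrl-D. Without the filter Orc5, Mcm6, geminin, RPA2, RfC4 and asf1 passed as higher and CTPsyn as lower, and without QuadD replicate 2 there were 26 that passed.

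**Figure D1:**
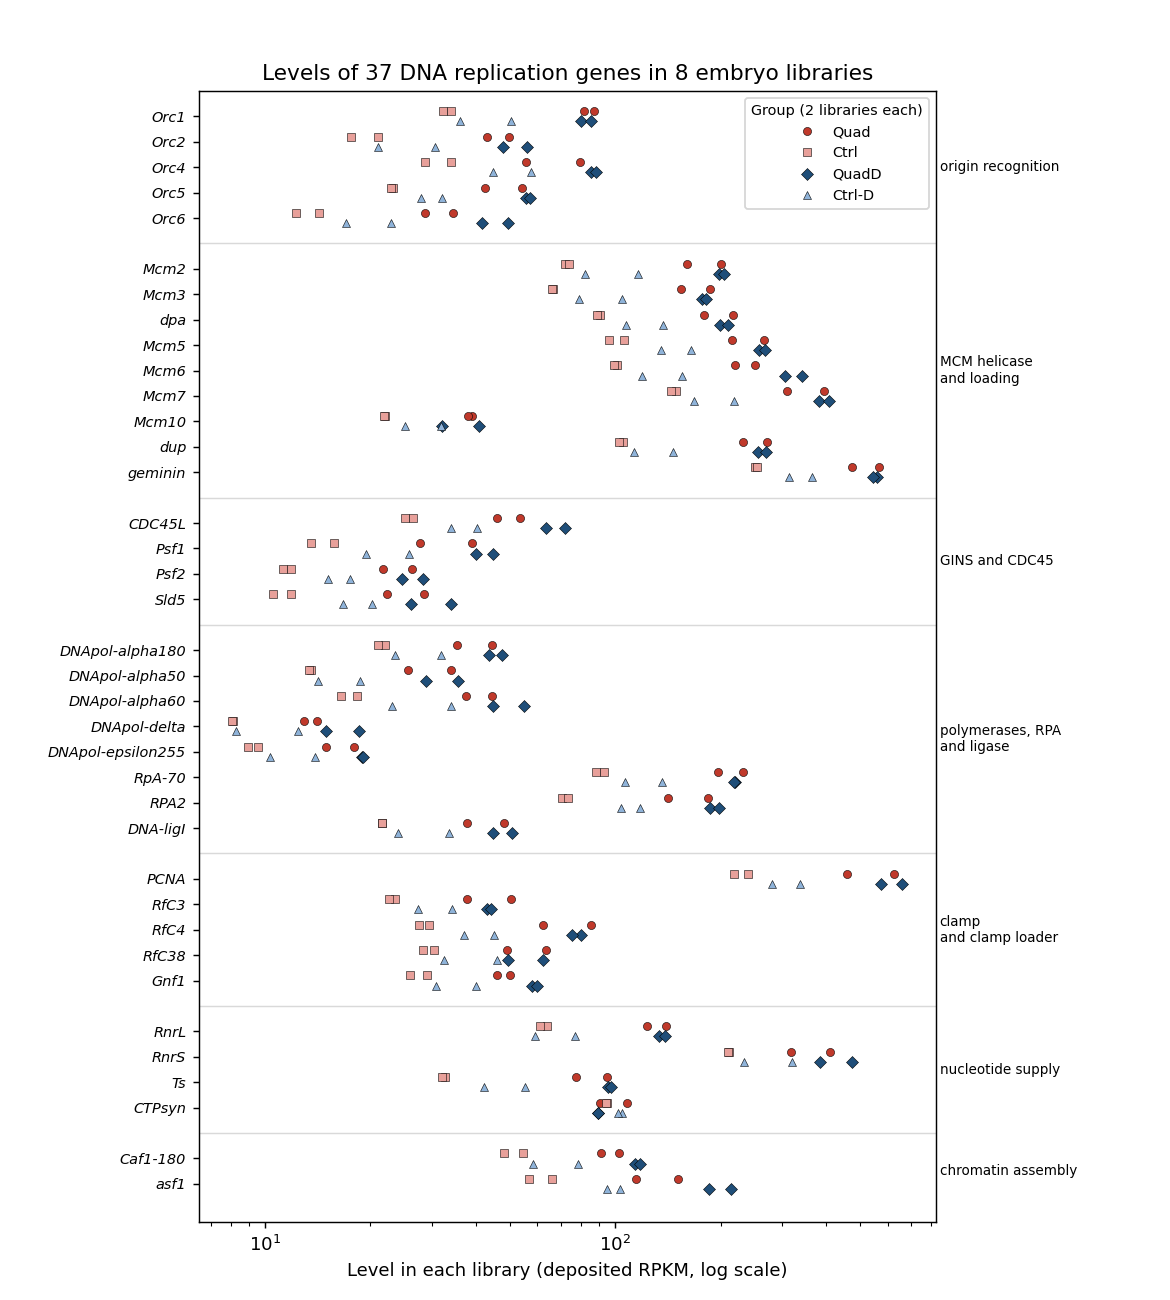
Level of each of the 37 genes in each of the 8 libraries, in deposited RPKM on a log axis, with genes ordered by role. Points are single libraries; Quad and Ctrl points (circles and squares) stand apart for 36 genes, and the CTPsyn points of all groups fall close together.

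The origin recognition complex binds the DNA sites at which copying starts, and Orc1 is its largest, ATP-binding subunit. Orc1 stood at 81.3 and 86.9 RPKM in Quad, against 33.9 and 32.3 RPKM in Ctrl, a log2 fold change of 1.32 ± 0.10 (adjusted p = 0.000389). In QuadD it had 79.8 and 85.2 RPKM, against 50.6 and 36.1 RPKM in Ctrl-D (0.93 ± 0.16, adjusted p = 0.00461). The groups did not overlap in either experiment, and the Ctrl-D libraries differed more from each other than the Ctrl libraries did. Orc6, the smallest subunit, which is needed for loading the helicase, had 28.7 and 34.4 RPKM in Quad, against 14.3 and 12.3 RPKM in Ctrl. Orc6 levels in QuadD were 41.7 and 49.4 RPKM, against 22.9 and 17.0 RPKM in Ctrl-D. The log2 fold changes of Orc6 were 1.19 ± 0.16 (adjusted p = 0.0021) and 1.16 ± 0.17 (adjusted p = 0.00234), the second largest rise among the 37 genes in QuadD. All 5 listed subunits rose in both experiments, with a median of 1.19 in Quad and 0.93 in QuadD. Per length, Orc6 was the lowest of the 5 subunits in all 8 libraries, and the highest subunit was at 1.78 to 2.83 times its level. Orc1 was the highest subunit in Quad and Ctrl, and Orc4 in QuadD and Ctrl-D.

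The MCM2-7 complex is a ring of 6 related proteins that unwinds DNA ahead of the polymerases, and dpa is the fly gene for Mcm4. Mcm3 had 154 and 186 RPKM in Quad, against 66.4 and 65.9 RPKM in Ctrl, the second largest rise in that experiment (1.35 ± 0.12, adjusted p = 0.000514). In QuadD its levels were 177 and 182 RPKM, against 104 and 78.9 RPKM in Ctrl-D (0.98 ± 0.14, adjusted p = 0.00225). Mcm6 had the largest rise in QuadD, with 306 and 341 RPKM against 155 and 119.6 RPKM in Ctrl-D (1.24 ± 0.14, adjusted p = 0.000932). Its Quad libraries had 219.5 and 251 RPKM, against 101 and 99.0 RPKM in Ctrl (1.22 ± 0.10, adjusted p = 0.000449). Across all 6 subunits, log2 fold changes lay between 1.13 for dpa and 1.35 for Mcm3 in Quad, and between 0.75 for dpa and 1.24 for Mcm6 in QuadD. Mcm7 was the highest and Mcm3 the lowest subunit in all 8 libraries, with Mcm7 at 2.0 to 2.25 times Mcm3. In the reference annotation, 81.7% of the Mcm7 exon length is shared with a gene on the opposite strand, asRNA:CR45871. The sources used here do not say whether reads were counted by strand, so the Mcm7 level is uncertain.

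Over all 9 helicase and loading genes the median was 1.24 in Quad and 0.98 in QuadD. Among those that act on loading, dup rose to 232 and 271 RPKM in Quad, against 105 and 103 RPKM in Ctrl (1.26 ± 0.10, adjusted p = 0.000463). In QuadD, dup stood at 255 and 270.1 RPKM, against 146 and 113 RPKM in Ctrl-D (1.02 ± 0.13, adjusted p = 0.00155). Its inhibitor geminin had 473 and 567 RPKM in Quad, against 252 and 254 RPKM in Ctrl (1.03 ± 0.11, adjusted p = 0.000979). With 560.4 and 544 RPKM in QuadD, against 366 and 315 RPKM in Ctrl-D, geminin rose by 0.70 ± 0.10 (adjusted p = 0.00236). Within a library, geminin was 2.04 and 2.09 times dup in Quad, against 2.39 and 2.47 times in Ctrl. The ratio was 2.19 and 2.01 in QuadD, against 2.5 and 2.77 in Ctrl-D. In both experiments the ratios of the misexpression libraries lay below those of their controls.

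Mcm10, a separate protein that helps to activate the helicase, was the loading gene with the smallest difference. It had 39.1 and 38.0 RPKM in Quad, against 21.9 and 21.8 RPKM in Ctrl, and rose by 0.79 ± 0.12 (adjusted p = 0.00289). QuadD embryos had 32.0 and 40.8 RPKM, against 31.8 and 25.2 RPKM in Ctrl-D (0.34 ± 0.16, adjusted p = 0.122). The lower QuadD library was thus almost level with the higher Ctrl-D library. Relative to the median of the MCM2-7 genes in the same library, Mcm10 was at 0.198 and 0.163 in Quad, against 0.228 and 0.236 in Ctrl. That ratio was 0.14 and 0.17 in QuadD, against 0.218 and 0.222 in Ctrl-D, again without overlap between the groups of either experiment. In the annotation 13.0% of the Mcm10 exon length is shared with Ret on the opposite strand.

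CDC45 and GINS convert the loaded MCM ring into the moving helicase. CDC45L had 45.8 and 53.4 RPKM in Quad, against 26.4 and 25.2 RPKM in Ctrl, a rise of 0.91 ± 0.13 (adjusted p = 0.0023). In QuadD its levels were 63.5 and 72.1 RPKM, against 40.2 and 33.9 RPKM in Ctrl-D (0.86 ± 0.12, adjusted p = 0.00225). The groups stood apart in both experiments. The GINS genes Psf1, Psf2 and Sld5 rose by 0.99 to 1.12 in Quad and by 0.67 to 0.89 in QuadD. Their levels were close to each other within a library, with the highest at 1.2 to 1.63 times the lowest. Psf1 was the highest in all 8 libraries. The QuadD calls of Psf2 and Sld5 were lost without QuadD replicate 2 (adjusted p = 0.0585 and 0.0964), and that of Sld5 also without Ctrl-D replicate 2 (adjusted p = 0.0678).

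**Figure D2:**
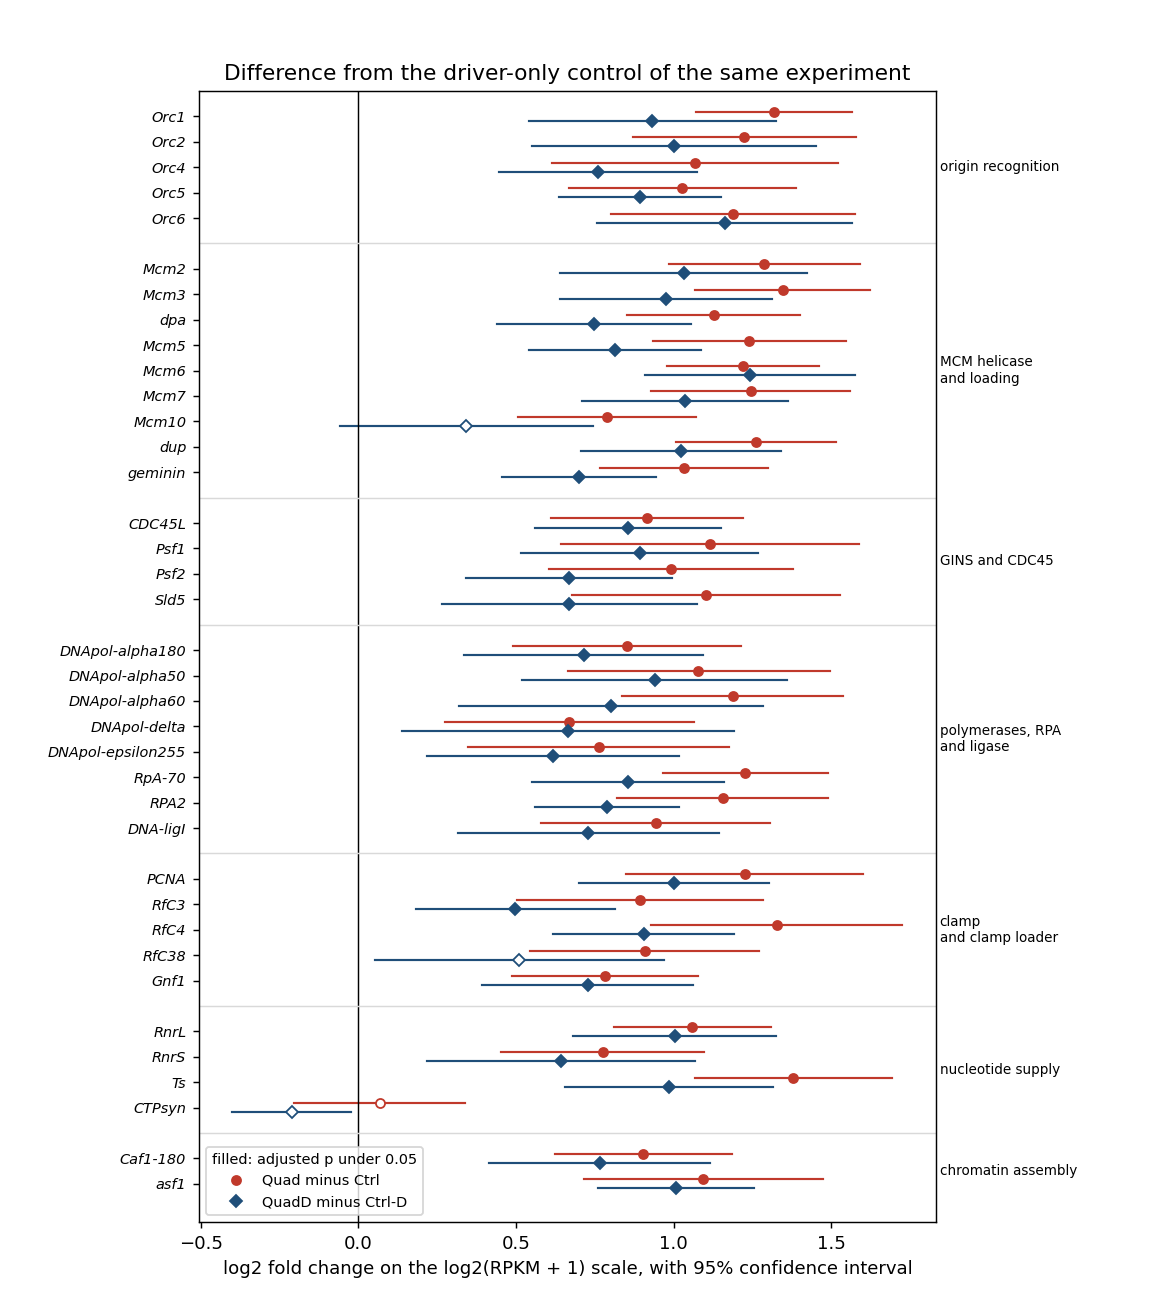
Log2 fold change of each gene on the log2(RPKM + 1) scale, for Quad minus Ctrl (circles) and QuadD minus Ctrl-D (diamonds), with 95% confidence intervals as bars. Filled symbols have an adjusted p under 0.05; the open ones are CTPsyn in both comparisons and Mcm10 and RfC38 in QuadD.

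The catalytic genes of polymerases delta and epsilon had the lowest levels of the 37 genes per length and some of the smaller differences. Polymerase alpha starts each new strand with an RNA primer, and its catalytic gene DNApol-alpha180 had 35.3 and 44.4 RPKM in Quad, against 22.0 and 21.0 RPKM in Ctrl (0.85 ± 0.15, adjusted p = 0.00533). Its QuadD libraries had 43.7 and 47.4 RPKM, against 31.8 and 23.5 RPKM in Ctrl-D (0.72 ± 0.16, adjusted p = 0.0104). The primase genes DNApol-alpha50 and DNApol-alpha60 rose by 1.08 ± 0.17 and 1.19 ± 0.14 in Quad and by 0.94 ± 0.17 and 0.80 ± 0.20 in QuadD. DNApol-delta, the catalytic gene of the polymerase that copies the lagging strand, was the lowest in every group. It had 12.9 and 14.1 RPKM in Quad, against 8.11 and 8.07 RPKM in Ctrl (0.67 ± 0.16, adjusted p = 0.0175). With 14.9 and 18.6 RPKM in QuadD, against 12.4 and 8.23 RPKM in Ctrl-D, its difference was 0.67 ± 0.22 (adjusted p = 0.0405). DNApol-epsilon255, which copies the leading strand, rose by 0.76 ± 0.17 in Quad and by 0.62 ± 0.16 in QuadD. In Quad, both the DNApol-delta and the DNApol-epsilon255 call were lost without either Ctrl library (adjusted p between 0.0601 and 0.122). In QuadD, both were lost without QuadD replicate 2 (adjusted p = 0.175 and 0.0814) and without Ctrl-D replicate 2 (adjusted p = 0.135 and 0.0509). The DNApol-epsilon255 call was also lost without QuadD replicate 1 (adjusted p = 0.0716), and that of DNApol-alpha60 without QuadD replicate 2 (adjusted p = 0.0708). With median-of-ratios scaling the adjusted p of DNApol-delta in QuadD was 0.0502.

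RPA coats single-stranded DNA behind the helicase. RpA-70, its large subunit, had 197 and 231 RPKM in Quad, against 93.1 and 87.9 RPKM in Ctrl (1.23 ± 0.11, adjusted p = 0.000564). The QuadD libraries had 220.0 and 218 RPKM, against 136 and 107 RPKM in Ctrl-D (0.85 ± 0.12, adjusted p = 0.00255). RPA2 rose by 1.16 ± 0.14 and 0.79 ± 0.09. The ligase gene DNA-ligI, which seals the lagging strand, rose by 0.94 ± 0.15 in Quad and by 0.73 ± 0.17 in QuadD, a QuadD call lost without QuadD replicate 2 (adjusted p = 0.0614). Over the 8 polymerase, RPA and ligase genes the median was 1.011 in Quad and 0.76 in QuadD.

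PCNA, the ring that holds polymerases on DNA, had the highest mean level per length of the 37 genes in Quad and QuadD. In both controls geminin had the highest mean. Within Quad replicate 1, however, geminin stood above PCNA, at 473 against 460.1 RPKM. PCNA had 460.1 and 626 RPKM in Quad, against 219 and 239.6 RPKM in Ctrl (1.23 ± 0.15, adjusted p = 0.00168). In QuadD its levels were 573 and 662 RPKM, against 337 and 279.9 RPKM in Ctrl-D (1.00 ± 0.12, adjusted p = 0.00141). The groups stood apart in both experiments, and Quad replicate 1 was the lowest of the 4 misexpression libraries. RFC opens the clamp and places it on DNA; Gnf1 encodes its large subunit. RfC4 rose by 1.33 ± 0.17 in Quad and by 0.91 ± 0.12 in QuadD, and Gnf1 by 0.78 ± 0.12 and 0.73 ± 0.14. RfC3 rose by 0.89 ± 0.16 and by 0.50 ± 0.13, and its QuadD call was lost without QuadD replicate 1 (adjusted p = 0.0682) and without QuadD replicate 2 (adjusted p = 0.0918).

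RfC38, a small subunit, had 49.0 and 63.4 RPKM in Quad, against 28.2 and 30.3 RPKM in Ctrl (0.91 ± 0.15, adjusted p = 0.00436). With 49.4 and 62.2 RPKM in QuadD, against 45.9 and 32.5 RPKM in Ctrl-D, RfC38 missed the threshold (0.51 ± 0.19, adjusted p = 0.0598). The groups of that experiment did not overlap, and each spread widely. RfC38 passed without Ctrl-D replicate 1 (0.75, adjusted p = 0.0156) and without QuadD replicate 1 (0.67, adjusted p = 0.0476). In the annotation 25.2% of its exon length is shared with Nup160 on the opposite strand. Within a library, PCNA was 9.68 and 11.0 times the median RFC level in Quad, against 7.65 and 8.95 times in Ctrl. The ratio was 10.7 and 10.8 in QuadD, against 7.91 and 8.83 in Ctrl-D, so the ratio was higher in the misexpression libraries of both experiments without overlap.

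Nucleotide supply held both ends of the range of the 37 genes in Quad, and only the lower end in QuadD. Ts, thymidylate synthase, which makes the thymidine nucleotide used for DNA, had 77.2 and 94.96 RPKM in Quad, against 32.7 and 31.9 RPKM in Ctrl. Its rise of 1.38 ± 0.13 (adjusted p = 0.000658) was the largest of the 37 in that experiment. Ts levels in QuadD were 95.5 and 97.6 RPKM, against 55.2 and 42.2 RPKM in Ctrl-D (0.99 ± 0.14, adjusted p = 0.00206). CTPsyn, CTP synthase, supplies a nucleotide that cells also use for RNA and membrane lipids. It had 90.7 and 108 RPKM in Quad, against 94.6 and 94.2 RPKM in Ctrl, so that the Quad libraries lay on either side of Ctrl (0.068 ± 0.11, adjusted p = 0.643, 95% interval -0.20 to 0.34). In QuadD both libraries, at 89.2 and 89.1 RPKM, lay below the Ctrl-D libraries, at 105 and 102 RPKM (-0.21 ± 0.08, adjusted p = 0.059). With median-of-ratios scaling this last difference passed as lower (-0.28, adjusted p = 0.0254), as it did with quantile normalization (-0.23, adjusted p = 0.0436). CTPsyn shares 13.2% of its exon length with other genes in the annotation, one of them, CG45071, on the same strand.

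Ribonucleotide reductase makes deoxynucleotides from ribonucleotides, and it needs a large and a small subunit. RnrL, the large one, had 123 and 139.6 RPKM in Quad, against 63.9 and 61.0 RPKM in Ctrl (1.06 ± 0.10, adjusted p = 0.000752). In QuadD it had 133 and 139 RPKM, against 76.7 and 59.0 RPKM in Ctrl-D (1.00 ± 0.13, adjusted p = 0.00178). RnrS had 317 and 410.3 RPKM in Quad, against 211 and 209.6 RPKM in Ctrl, a smaller rise of 0.78 ± 0.13 (adjusted p = 0.00499). Its QuadD levels were 386 and 473 RPKM, against 321 and 233 RPKM in Ctrl-D (0.64 ± 0.17, adjusted p = 0.0224). That call was lost without QuadD replicate 2 (adjusted p = 0.112) and without Ctrl-D replicate 2 (adjusted p = 0.0606). RnrS stood at 2.58 and 2.94 times RnrL in Quad, against 3.31 and 3.44 times in Ctrl. The same ratio was 2.9 and 3.41 in QuadD, against 4.18 and 3.94 in Ctrl-D, lower in the misexpression libraries of both experiments.

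In all, 8 ratios between genes were computed, and the 4 given so far were chosen for the plot of ratios after their values were seen. Of the others, Ts over CTPsyn was 0.852 and 0.878 in Quad, against 0.345 and 0.339 in Ctrl. It was 1.07 and 1.1 in QuadD, against 0.528 and 0.413 in Ctrl-D. DNApol-alpha180 over DNApol-epsilon255 differed little, at 2.36 and 2.48 in Quad, against 2.3 and 2.35 in Ctrl. In the second experiment it was 2.32 and 2.49 in QuadD, against 2.29 and 2.26 in Ctrl-D. Like the plotted ratios, these were without overlap in either experiment, even where the difference was small. RpA-70 over RPA2 overlapped in both experiments, with 1.39 and 1.26 in Quad, against 1.32 and 1.2 in Ctrl, and 1.18 and 1.1 in QuadD, against 1.16 and 1.02 in Ctrl-D. The MCM2-7 median over the ORC median was 4.6 and 4.3 in Quad, against 4.15 and 4.04 in Ctrl, without overlap. In the second experiment that ratio overlapped, with 4.09 and 4.18 in QuadD, against 4.54 and 4.06 in Ctrl-D.

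**Figure D3:**
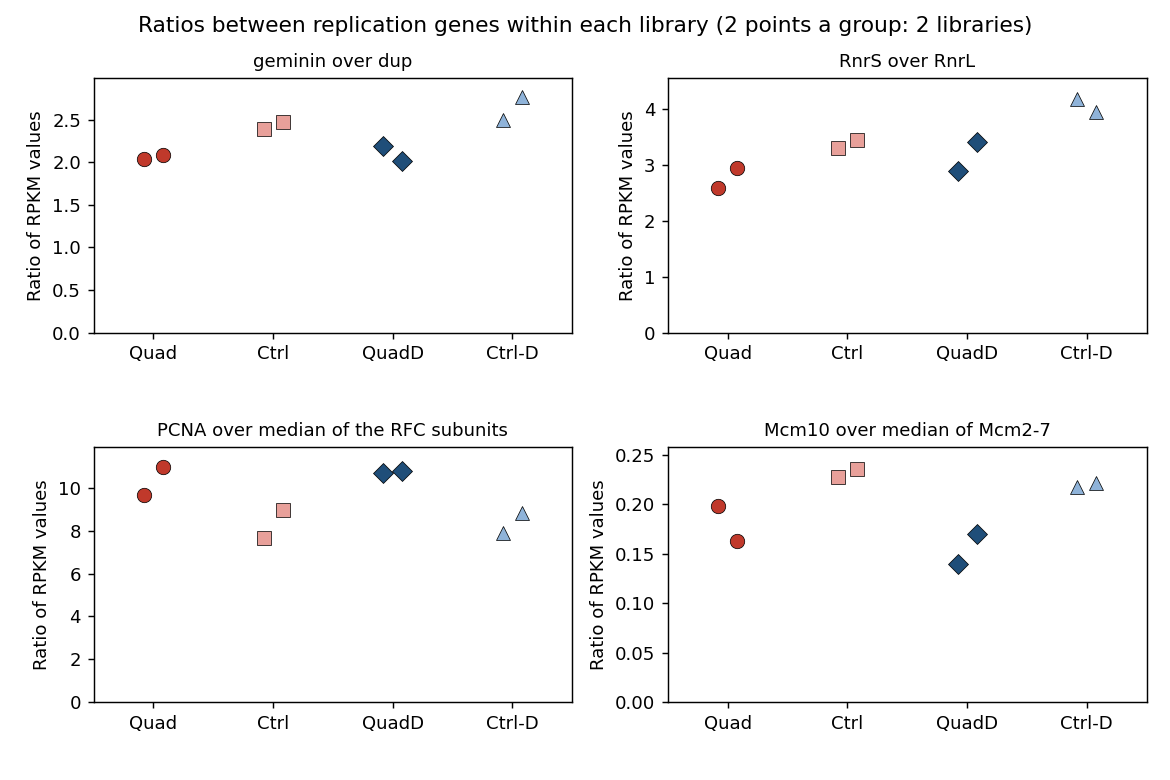
Of the 8 ratios of RPKM values computed between genes within a library, 4 chosen after their values were seen, with 1 point per library and 2 libraries per group, on axes that start at 0. Ratios of geminin to dup, RnrS to RnrL and Mcm10 to the MCM2-7 median were lower, and PCNA to the RFC median higher, in Quad than in Ctrl and in QuadD than in Ctrl-D, with no overlap within an experiment.

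New DNA is packed into nucleosomes by CAF-1, whose large subunit is Caf1-180, and by the histone chaperone asf1. Caf1-180 had 91.4 and 103 RPKM in Quad, against 54.7 and 48.0 RPKM in Ctrl (0.90 ± 0.12, adjusted p = 0.00173). QuadD libraries held 114 and 118 RPKM, against 78.5 and 58.4 RPKM in Ctrl-D (0.77 ± 0.14, adjusted p = 0.00622). The chaperone asf1 had 114.5 and 151 RPKM in Quad, against 66.0 and 56.6 RPKM in Ctrl (1.09 ± 0.16, adjusted p = 0.00263). With 186 and 215 RPKM in QuadD, against 103 and 94.7 RPKM in Ctrl-D, asf1 rose by 1.008 ± 0.10 (adjusted p = 0.000693). Both QuadD libraries thus held more asf1 than both Quad libraries, which come from a different lane. Between the driver-only controls, both Ctrl-D libraries likewise held more asf1 than both Ctrl libraries (0.68 ± 0.14). In limma's test the QuadD and Quad effects on asf1 differed by -0.087 ± 0.20 (adjusted p = 0.881).

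Most other genes of the pathway that were tested moved in the same direction. A further list of 33 replication genes was chosen with earlier results of these data known. It included loading factors, further polymerase and RFC subunits, checkpoint mediators, topoisomerases, nucleotide enzymes and histone chaperones. One of them, dUTPase, was listed at the floor of the tables in all 8 libraries and was not tested. Of the 32 tested, 30 rose and 0 fell in Quad (median 0.97), against 24.9% of all genes tested that rose. In QuadD 28 rose and 0 fell (median 0.73), against 27.4% of all genes tested that rose. Without any filter these counts were 11 and 6, and without QuadD replicate 2 the QuadD count was 16. The Quad count was 20 without Ctrl replicate 2. Chrac-14, a histone-fold subunit shared by chromatin remodelling and polymerase complexes, had the largest rise in Quad, with 124 and 158 RPKM against 44.6 and 49.6 RPKM in Ctrl (1.55 ± 0.14, adjusted p = 0.000596). In QuadD the largest rise was in RecQ4, a helicase-related origin firing factor, with 26.8 and 33.6 RPKM against 15.1 and 10.9 RPKM in Ctrl-D (1.16 ± 0.19, adjusted p = 0.00366). Top2, which untangles finished chromosomes, rose by 1.35 ± 0.10 and 1.08 ± 0.13. Top1, which relaxes supercoils during transcription and replication, did not pass in either experiment, with log2 fold changes of 0.097 and -0.067. Nap1, a histone chaperone, passed narrowly in Quad, with 183 and 194 RPKM against 154 and 161 RPKM in Ctrl (0.26 ± 0.09, adjusted p = 0.0499). In QuadD, Nap1 (-0.040 ± 0.08, adjusted p = 0.668) and the meiotic MCM gene rec (0.39 ± 0.21, adjusted p = 0.163) did not pass.

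A list of 7 regulators of replication genes was read beside them. Of these, 6 rose in Quad and 5 in QuadD, against 24.9% and 27.4% of all genes tested. CycE, the cyclin that starts S phase, had 196 and 218 RPKM in Quad, against 77.0 and 71.0 RPKM in Ctrl (1.47 ± 0.10, adjusted p = 0.000251). In QuadD it rose by 1.32 ± 0.15. E2f1, the activating E2F, rose by 0.80 ± 0.10 and 0.86 ± 0.12, and Dref, a factor that binds promoters of replication genes, by 0.96 ± 0.09 and 0.68 ± 0.08. Rbf2, a retinoblastoma family gene, rose by 1.16 ± 0.14 and 0.86 ± 0.18, and its relative Rbf by 0.38 ± 0.11 and 0.47 ± 0.12. Dp, the E2F partner, did not pass in either experiment (adjusted p = 0.0998 and 0.062). E2f2, the repressive E2F, rose by 0.44 ± 0.12 in Quad and missed the threshold in QuadD (0.23 ± 0.08, adjusted p = 0.0529).

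**Figure D4:**
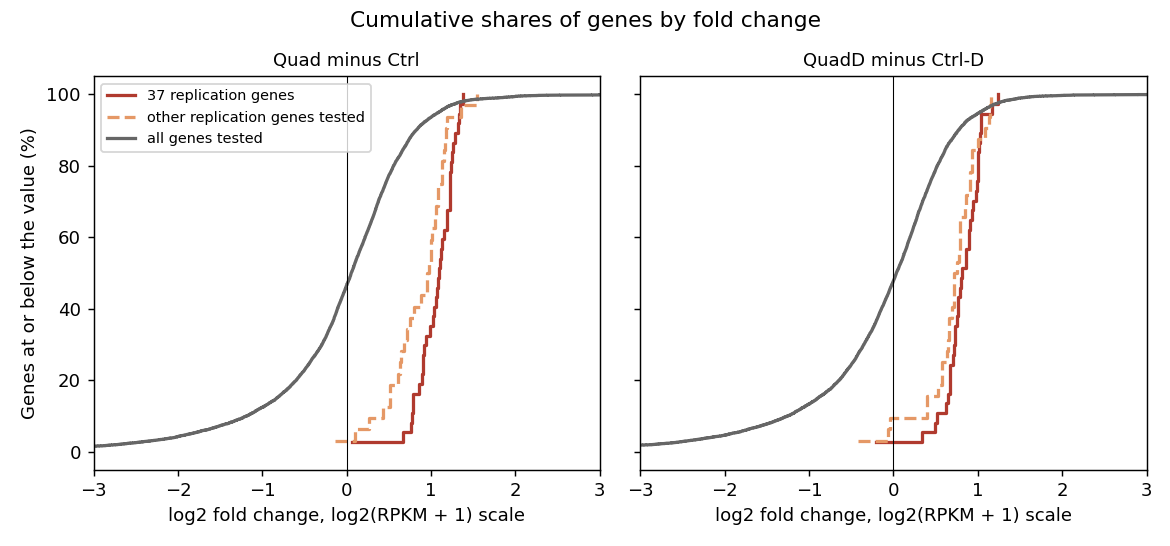
Cumulative share of genes, in percent, by log2 fold change, for Quad minus Ctrl on the left and QuadD minus Ctrl-D on the right; genes beyond 3 on either side are not shown. The curves of the 37 genes (median 1.09 and 0.81) and of the other replication genes (0.97 and 0.73) lie to the right of the curve of all genes tested (0.053 and 0.034).

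The driver-only groups were not at the same level. All 37 genes had a higher mean log2 level in Ctrl-D than in Ctrl, with a median difference of 0.41 and a range from 0.11 for RnrL to 0.69 for Orc4. Both Ctrl-D libraries lay above both Ctrl libraries for 36 of the 37, which was so for 31.2% of all genes tested. None of the 37 passed limma's test on 8 libraries, where 1.23% of 10775 genes did. Before adjustment 27 of the 37 had a p under 0.05, as did 2736 of all 10775 genes tested. Limma's voom, run on the counts of 24 of the 37 genes, called 0 of them and 32 of all 4632 genes tested. Orc4 had 57.4 and 44.9 RPKM in Ctrl-D, against 33.9 and 28.6 RPKM in Ctrl (0.69 ± 0.18, adjusted p = 0.0777), and asf1 differed by 0.68 ± 0.14 (adjusted p = 0.0538). RnrL was the gene whose control libraries overlapped. Without Quad replicate 1, or without Quad replicate 2, some of the 37 passed, and more of all genes tested passed as well. The median of the 37 stayed at 0.41 in both cases. With a filter at 5 RPKM, 2 of the 37 passed, RPA2 and asf1, as did 191 of all 8488 genes tested. The median was 0.24 without Ctrl-D replicate 1 and 0.60 without Ctrl-D replicate 2. The Ctrl-D and Ctrl comparison shares its control libraries with the 2 comparisons above.

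Whether the QuadD effect differed from the Quad effect was tested directly, as the QuadD minus Ctrl-D difference less the Quad minus Ctrl difference. The value was negative for 36 of the 37 genes, with a median of -0.24. Over all genes tested the median was -0.060, and 4514 of 10775 genes had a value above 0. None of the 37 passed, against 2.7% of 10775 genes, and voom called 0 of 24, against 114 of all 4632 genes tested. One gene, Mcm5, had an unadjusted p under 0.05 (-0.43 ± 0.18, adjusted p = 0.291). The most negative value was that of Mcm10 (-0.45 ± 0.21, adjusted p = 0.334, 95% interval -0.92 to 0.027), and the only positive one that of Mcm6 (0.023 ± 0.18, 95% interval -0.39 to 0.44). The intervals leave room for sizeable differences in either gene. The median moved with the libraries kept, to -0.057 without Ctrl-D replicate 1, to -0.095 without Quad replicate 2 and to -0.42 without Quad replicate 1 or Ctrl-D replicate 2. Across the 37 genes, Quad and QuadD log2 fold changes had Pearson's r = 0.84 and Spearman's rho = 0.76, and without CTPsyn r = 0.72 and rho = 0.74 over 36 genes. The points of such a correlation share the same 8 libraries. In levels, both QuadD libraries exceeded both Quad libraries for 14 genes, the libraries overlapped for 22, and CTPsyn was lower in QuadD. These libraries come from different lanes, and the shares over all genes were not computed.

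The 37 genes moved together from library to library. Relative to each gene's Ctrl mean, the median log2 level was 0.90 and 1.27 in the Quad libraries, and 0.019 and -0.019 in the Ctrl libraries. For QuadD replicates 1 and 2 it stood at 1.24 and 1.34, while those of Ctrl-D were at 0.60 and 0.24. In Quad, 36 of the 37 genes were higher in replicate 2 than in replicate 1, by a median of 0.27, while the median over all genes was 0.009. Mcm10 was the exception. In Ctrl-D, all 37 were lower in replicate 2, by a median log2 difference of -0.37 (all genes 0.005). QuadD had 33 genes higher in replicate 2, with a median of 0.093 (all genes 0.026). Ctrl had 8, with a median of -0.038, close to the -0.028 of all genes. A shift shared by the whole group of genes between replicates of a genotype was therefore as large as 0.37, against a median effect of 1.09 in Quad and 0.81 in QuadD. In levels, 34 of the 37 genes were lower in both Ctrl-D libraries than in both Quad libraries, the exceptions being Orc4, RnrS and CTPsyn. These libraries come from different lanes, and the share over all genes was not computed.

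**Figure D5:**
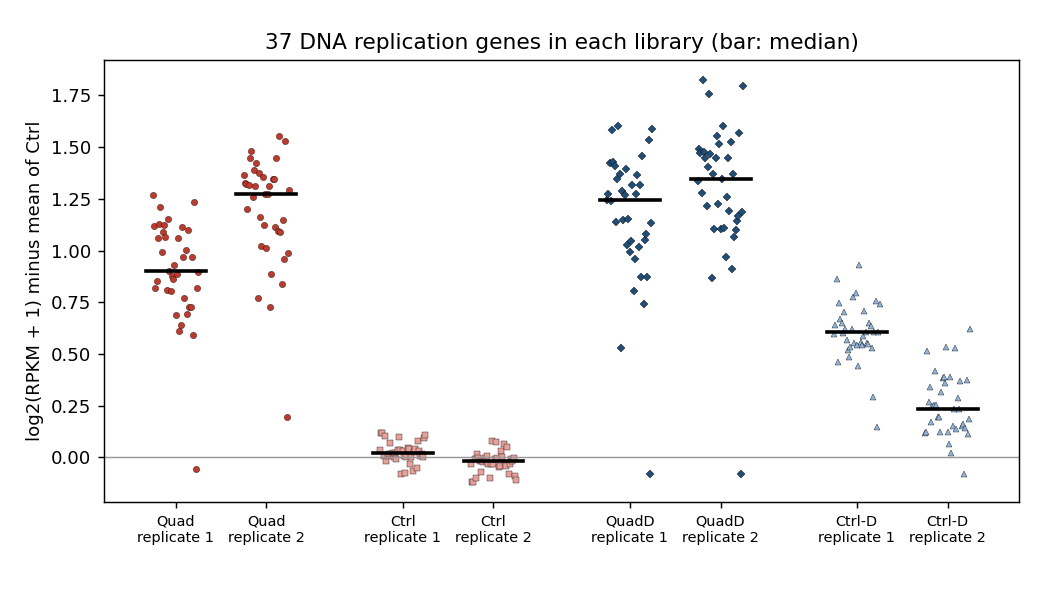
Log2(RPKM + 1) of each of the 37 genes minus that gene's mean in Ctrl, for each library. There is 1 point per gene and a bar at the median. Points are spread sideways in gene order, by role. Medians were 0.90 and 1.27 in Quad, near 0 in Ctrl; QuadD medians were 1.24 and 1.34 and Ctrl-D medians 0.60 and 0.24; the low outlying point in Quad and QuadD is CTPsyn.

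Markers of several cell types differed between the same groups. Over all genes tested, 24.9% rose in Quad and 27.4% in QuadD. Falls were called for 2355 of 10436 genes in Quad and for 2824 of 10207 in QuadD. The summed RPKM of 5 neuroblast genes was 1027 and 1001 in Quad, against 404 and 374 in Ctrl. QuadD had 1365 and 1387, against 507 and 417 in Ctrl-D, and all 5 genes rose in both experiments. The sum of 5 epidermis and cuticle genes was 83.0 and 64.2 in Quad, against 965.5 and 1244 in Ctrl. QuadD had 28.8 and 20.4, against 663 and 857 in Ctrl-D, and all 5 genes fell in both experiments. Of 5 neuron genes 2 rose in Quad and 5 in QuadD. Of 5 muscle genes 1 fell in Quad, near the share of all genes, and 5 fell in QuadD. The neuron and muscle sums differed between the Quad replicates, at 504 and 313 RPKM for neuron genes and 2818 and 1677 RPKM for muscle genes, with the higher value in the replicate that had the lower replication gene levels. All 3 glia genes rose in Quad and 2 of them in QuadD. Both tracheal genes fell in each experiment. Of the hemocyte genes, Hml was under 1 RPKM in every library and was not tested, and 2 others fell in Quad and 1 in QuadD. Of 5 germ cell and maternal genes 3 rose in Quad and 4 in QuadD, and of 4 early zygotic genes 2 rose and 1 fell in Quad, and 2 rose and 2 fell in QuadD. Between the controls, both Ctrl-D libraries lay below both Ctrl libraries in the epidermal sum, in the neuron sum, at 220.2 and 223 RPKM against 280.4 and 257 RPKM in Ctrl, and in the muscle sum, at 1923 and 2168 RPKM against 2647 and 3450 RPKM in Ctrl. They lay above both Ctrl libraries in the neuroblast sum and in the glia sum, at 141.7 and 140.9 RPKM against 127 and 119 RPKM in Ctrl. The same held for the tracheal sum, at 86.3 and 82.3 RPKM against 79.6 and 74.5 RPKM in Ctrl, and for the early zygotic sum, at 127 and 113 RPKM against 85.2 and 90.1 RPKM in Ctrl. The hemocyte sums and the germ cell and maternal sums of the controls overlapped. The part of these cell types in the replication gene results was not tested.

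In the reference annotation the exons of 15 of the 37 genes overlap those of another gene, and for 1 of them, CTPsyn, a gene on the same strand. All 22 genes with no overlap rose in both experiments, with a median of 1.10 in Quad and 0.81 in QuadD.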

How the data were processed

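Per the labels' protocols, RNA came from 50 mg of frozen embryos per sample, and each experiment filled 1 lane of 50 bp single-end sequencing. Per the file headers, the authors deposited for each gene and library a total RPKM on a linear scale, the log2 of that RPKM, a raw count and fold changes between single libraries, of which the RPKM was used. How reads were aligned and counted, whether by strand, and on which genome build is not given in the sources used here; coordinates are left out. The lowest RPKM is a floor, 0.002 in the first table and 0.003 in the second. The deposited counts were proportional to RPKM, within 1% or 1 read, for 5067 genes in both tables. Of the 37 replication genes, 24 had such counts, 10 had a count of 0 in all 8 libraries and 3 had part of their reads. For 414 genes a dash stood for the count, so the planned edgeR and DESeq2 tests on counts were not run, and limma's voom on the proportional genes took their place, a choice made after seeing the data.

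The test took genes that reached 1 RPKM in 2 or more of a fit's libraries, on log2(RPKM + 1), with limma 3.58.1 in R 4.3.3 (trended moderated test, two-sided, Benjamini-Hochberg adjustment over all genes tested, threshold 0.05). All 37 genes passed this filter in every fit. Quad against Ctrl and QuadD against Ctrl-D were fitted on the 4 libraries of each experiment, and Ctrl-D against Ctrl and the difference of effects on all 8 libraries. Confidence intervals are 95%. Levels in the text are per library, and with 2 libraries per group the precision of each mean is low. The members and all gene lists were chosen with earlier results of these data known. Genes shown with all library values were PCNA, those with the largest and smallest differences, those that did not pass in a comparison and 1 to 3 per role. Which genes overlap was read from the Ensembl annotation of the reference, whose build may differ from that of the authors. Alternatives were other pseudocounts (0.1 and 5 RPKM), no filter or a filter at 5 RPKM, median-of-ratios (RLE) and quantile scaling, fitting the 8 libraries together, blocking on the replicate number, and dropping 1 library at a time. The values of 1 gene among the other replication genes are not reported here.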

Additional observations from a re-analysis of the deposited data

How the results depend on the processing

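In Quad and QuadD, the count of the 37 genes that passed stayed within 1.5 times the reported one in each setting except that without a filter on low values, where all 17321 genes were tested. There it was 21 in Quad and 7 in QuadD (6 higher, 1 lower), and 11 and 6 for the other replication genes. Of all 17321 genes, 1287 rose in Quad and 1289 in QuadD in that setting. The cause of the lower counts was not tested. Leaving out each library in turn gave 34 to 36 in Quad and 26 to 35 in QuadD for the 37 genes, 20 to 29 and 16 to 29 for the other replication genes, 0 to 9 of the 37 for Ctrl-D against Ctrl (0 as reported) and 0 in each case for the difference of effects. A group left with 1 library was assumed to vary like the others. The highest count for Ctrl-D against Ctrl came without a Quad library, where more of all genes tested passed as well. The filter at 5 RPKM gave 2 for Ctrl-D against Ctrl, and 191 of all 8488 genes tested. With voom 24 of 24 testable genes passed in each experiment, as did 15 of the 15 testable other replication genes, against 30 and 28 of 32 as reported. Over all genes tested with voom, 1226 of 4533 rose in Quad and 1228 of 4139 in QuadD. Mcm10 passed with voom in QuadD (0.39, adjusted p = 0.0335). CTPsyn, which did not pass, turned sign in Quad with RLE scaling (-0.022), quantile normalization (-0.031) and without Quad replicate 2 (-0.058), and lay between -0.058 and 0.193 when each library was left out in turn. The median over all genes tested in QuadD was 0.034 and moved to 0.145 with quantile normalization, by 0.111, and the median of the 37 genes to 0.85. Leaving out a library moved the median of the 37 genes to between 0.90 and 1.27 in Quad and between 0.68 and 0.98 in QuadD.

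Over all genes tested, the share of higher calls was 49.7% in QuadD, 38.2% without QuadD replicate 2 and 58.7% with quantile normalization. The count of all genes called was 4956 in Quad and 5618 in QuadD, and without a filter 2696 and 3140; leaving out Ctrl replicate 1 gave 2714 in Quad and leaving out Ctrl replicate 2 gave 2444, and QuadD had 3741 after leaving out QuadD replicate 1 and 3293 after leaving out QuadD replicate 2. The deviations of same-numbered libraries had a correlation over genes of -0.0434 in the first experiment and -0.0948 in the second. With 2 libraries per group, these values cannot decide whether the replicate numbers pair the samples. With the replicate block 36 and 35 of the 37 genes passed, RfC38 being the one added (adjusted p = 0.0419). With the block 28 and 28 of the other replication genes passed, and 0 of the 37 in Ctrl-D against Ctrl and in the difference of effects. The planned edgeR and DESeq2 settings were not run.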
